A study of Homo sapiens with 6 samples.

Results

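The genes described here are 10 components of small ribonucleoprotein machines, out of 62700 genes in the counts table. They were taken by symbol from a list of names: the RNAs RN7SL1 and RN7SL2 of the signal recognition particle (SRP), RN7SK, RMRP and RPPH1, and the SRP protein genes SRP9, SRP14, SRP54, SRP68 and SRP72. RN7SL1 was selected on its p and fold change between the groups of these same libraries, and the others were chosen by name as parts of the same or similar particles. The differences between groups given for the 10 genes are therefore a description. Where calls or intervals from fits over all genes are given for them, these are not read as support for a difference. Of the 10 genes, 7 had reads, 6 passed the filter on low counts, and 3 had 0 reads in all 6 libraries.

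The cells are labelled MKN-45, a line from a human gastric adenocarcinoma, with 3 cultures labelled control and 3 labelled NNMT knockdown. NNMT encodes nicotinamide N-methyltransferase. Harvest was 48 h after transfection with an RNA that some labels call siRNA and others shRNA. The controls are named negative-control shRNA in the genotype label and untouched in the design text, and the 3 cultures of each condition are described as independent. RNA was enriched for poly(A) tails before sequencing as paired reads of 150 bases. Library totals lay between 40558680 and 56067484 reads. NNMT held 0, 8 and 12 reads in control replicates 1, 2 and 3 and 2, 8 and 14 in the replicates labelled knockdown, so no lowering of the targeted RNA was visible. Of 10 markers of gastric and intestinal epithelium, GKN1, CDX1 and CDX2 had 0 reads in all libraries, and GKN2 and HNF4A had 2 reads each over the 6 libraries. The other 5 had reads in every library: in CPM (reads of the gene per 1e6 reads of the library), MUC6 lay between 25.7 and 84.1, MUC5AC between 3.67 and 42.5, TFF1 between 1.63 and 8.36, TFF2 between 0.553 and 3.50, and CLDN18 between 0.120 and 0.357. Of 5 epithelial markers, KRT19 lay between 898 and 1261 CPM, KRT8 between 168 and 194, and KRT18 between 111 and 128. CDH1 lay between 28.6 and 46.1 CPM and EPCAM between 17.2 and 40. Of 5 mesenchymal markers, COL6A1 lay between 3607 and 5728 CPM, FN1 between 1219 and 3142, and VIM between 701 and 990. COL1A1 lay between 241 and 510 CPM and COL1A2 between 5.76 and 19.4. Whether the cells match their label was not tested.

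The SRP binds the signal peptide of a nascent secretory or membrane protein as it leaves the ribosome, slows elongation, and delivers the ribosome to its receptor and the translocon of the endoplasmic reticulum. Its scaffold is the 7SL RNA, made by RNA polymerase III. SRP9 and SRP14 bind the Alu domain of that RNA, while SRP19, SRP54, SRP68 and SRP72 bind the S domain. 7SK RNA holds the elongation kinase P-TEFb in an inactive complex, and RMRP and RPPH1 are the RNA subunits of RNase MRP, which processes ribosomal RNA precursors, and of RNase P, which trims the 5′ ends of tRNA precursors. None of these RNAs normally ends in a poly(A) tail like that of most mRNAs, so libraries selected for poly(A) hold an unknown share of them.

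The 7SL genes are near copies of each other, which limits where a read can be told apart. RN7SL1 (ENSG00000276168.1, chr14:49586580-49586878 in hg38, plus strand) is 299 bases long, RN7SL2 (ENSG00000274012.1, chr14:49862550-49862849, minus strand) is 300 bases long, and the neighbouring RN7SL3 (chr14:49853616-49853914, minus strand) is 299 bases long. In GENCODE 29 transcripts (GRCh38), RN7SL2 was 98.3% identical to RN7SL1, and RN7SL3 was 97.7% identical to it. Of the 150 stretches of 150 bases that RN7SL1 contains, 99 (66%) occurred without a mismatch in a transcript from another locus, either RN7SL2 or the copy RN7SL5P. The other 51 stretches were found in no other locus. This search covered annotated transcripts and not the genome.

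Annotation set another limit on which of these RNAs could be counted. The authors' count command did not allow a read that overlaps exons of several genes to be assigned. RN7SL2, RN7SK and RPPH1 each lie entirely within the exons of another annotated gene on the same strand. All 300 bases of RN7SL2 fall in ENSG00000282885, a noncoding gene of 2241 exon bases. All 333 bases of RPPH1 (ENSG00000277209.1, chr14:20343075-20343407, minus strand) fall in ENSG00000259001, which is 638 bases long. RN7SK (ENSG00000283293.1, chr6:52995621-52995948, plus strand) is also annotated as 7SK (ENSG00000202198.1, chr6:52995620-52995950). All 328 bases of RN7SK lie in that longer entry. The 3 nested genes had 0 reads in each of the 6 libraries, and the longer entry 7SK had 0 as well.

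The same held for every gene of this kind in the table. Of 2633 genes without a single exon base free of other genes' exons, 2633 (100%) had 0 reads in all 6 libraries. Among the 60067 genes with at least 1 free base, 37% had 0 reads throughout. For genes as long as these RNAs, from 250 to 350 bases, the shares were 176 of 176 without a free base and 2255 of 3552 (63.5%) with every base free. A count of 0 for RN7SL2, RN7SK or RPPH1 is thus fixed by the annotation and says nothing of the level of the RNA. No upper limit from sequencing depth applies to them, since any read over these genes also overlaps the other entry. RN7SL1, at 299 of 299 bases, and RMRP, at 264 of 264 bases, were free of other exons.

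**Figure D1:**
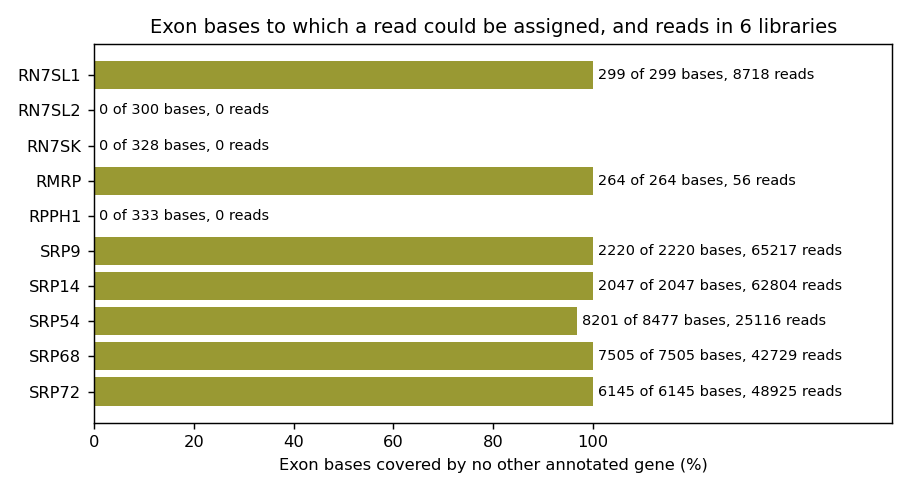
Share of each gene's exon bases that no other annotated gene covers (horizontal axis, %), with the free bases and the reads summed over the 6 libraries written beside each bar. RN7SL2, RN7SK and RPPH1 have 0 free bases and 0 reads, while RN7SL1 has 8718 reads and RMRP 56.

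Among the 7SL genes to which reads could be assigned, which leaves out RN7SL2, RN7SL1 held the most reads. It was higher in the libraries labelled NNMT knockdown. It held 642, 909 and 856 reads in control replicates 1, 2 and 3, and 2929, 1614 and 1768 reads in replicates 1, 2 and 3 labelled knockdown. As levels, these were 15.4, 18.9 and 15.3 CPM against 72.2, 35.5 and 40.7 CPM. The groups did not overlap, and replicate 1 labelled knockdown stood above the other 2 of its group. Of 20250 tested genes, 869 (4.29%) were likewise higher in the knockdown-labelled group without overlap, and 9.17% were separated in either direction. The group means were 16.5 ± 2.02 and 49.5 ± 19.9 CPM (SD, n = 3 each), and the SD of the knockdown-labelled group exceeded the control mean. The fitted log2 fold change was 1.59 (SE 0.300), or 3.01-fold, and 1.19 without replicate 1 labelled knockdown. Of the 10 members, 0 were called by edgeR's quasi-likelihood test (0% of all genes), 0 by that test with all genes with reads kept (0.19%), and RN7SL1 alone by DESeq2 (0.0395%), and since RN7SL1 was chosen on this contrast nothing is read from these counts.

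Set against SRP14, whose protein binds the same RNA, RN7SL1 gave 60.2, 80.5 and 67.6 reads per 1000 SRP14 reads in control replicates 1, 2 and 3. The ratio was 349, 152 and 193 in replicates 1, 2 and 3 labelled knockdown. SRP14 differed little between the groups, so this ratio restates the RN7SL1 difference and adds no support to it. The library with the highest RN7SL1 level, replicate 1 labelled knockdown, also had the smallest total, 40558680 reads. Control replicate 1 had the next smallest total, 41591436 reads, and an RN7SL1 level of 15.4 CPM. Replicates 2 and 3 labelled knockdown had 45405621 and 43455163 reads, with 35.5 and 40.7 CPM. Whether depth had a part in the difference was not tested.

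RN7SL1 lies on the opposite strand between exons of RPS29, a gene for a ribosomal protein of the small subunit (chr14:49570984-49599164, minus strand), with which it shares 0 exon bases. Reads were counted without regard to strand, so a read from unspliced RPS29 RNA over this interval would be counted for RN7SL1. RPS29 measured 140, 147 and 113 CPM in control replicates 1, 2 and 3 and 169, 195 and 173 CPM in the replicates labelled knockdown. It was thus also higher without overlap, as were 4.29% of all tested genes, and its highest library was replicate 2 labelled knockdown. These values count reads over RPS29 exons and do not measure unspliced RNA over the RN7SL1 interval. The part of RPS29 reads in the RN7SL1 count was not tested.

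The other 7SL copies, taken as a sum, lay at like levels in both groups. The genome holds many partial or diverged copies of 7SL, and 678 genes named RN7SL other than RN7SL1 and RN7SL2 were in the table, with a median identity of 79.3% to RN7SL1. Of these, 21 had no exon base free of other genes' exons, and 0 of those had a read. Of all 678 copies, 231 had at least 1 read and 24 passed the filter. Their summed level was 15.9, 20.4 and 21.6 CPM in control replicates 1, 2 and 3 and lay between 19.4 and 20 CPM in the replicates labelled knockdown. The knockdown-labelled values lay inside the range of the controls, with means of 19.3 ± 3.03 and 19.7 ± 0.276 CPM (SD, n = 3). Of the 24 tested copies, 11 lay above 0 and 13 below, their median log2 fold change being -0.0273, against 0.00333 over all tested genes. At the adjusted threshold 0 passed, as for all genes, and 1 of the 24 was higher without overlap, near the 4.29% of all tested genes. This copy, RN7SL834P, measured 0.745, 0.788 and 0.767 CPM in control replicates 1, 2 and 3 and 1.04, 0.969 and 0.805 CPM in the replicates labelled knockdown.

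RN7SL3, the copy nearest in sequence, held 0, 1 and 17 reads in control replicates 1, 2 and 3 and 8, 14 and 5 in the replicates labelled knockdown. All of its 299 bases were free of other exons, and none of its 150 stretches of 150 bases recurred in another gene's transcript, so its low count has another standing than the 0 of RN7SL2. Its groups overlapped. The copy with the most reads, RN7SL535P, has an identity of 81.6% to RN7SL1 and lay between 1.13 and 2.26 CPM, with the highest value in control replicate 2.

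The share of all reads on RN7SL-named genes that fell on RN7SL1 follows from the RN7SL1 reads and the near-equal sums of the copies, and is given as a description only. It was 49.3% in control replicate 1 (95% exact binomial interval 46.6% to 52.1%), 48% in control replicate 2 (45.8% to 50.3%) and 41.4% in control replicate 3 (39.3% to 43.6%). In replicate 1 labelled knockdown it was 78.5% (77.2% to 79.9%), in replicate 2 it was 64% (62.1% to 65.9%), and in replicate 3 it was 67.7% (65.8% to 69.5%). The means were 46.2 ± 4.25% and 70.1 ± 7.57% (SD, n = 3). The intervals cover counting error only and are too narrow, since mates were probably counted singly.

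**Figure D2:**
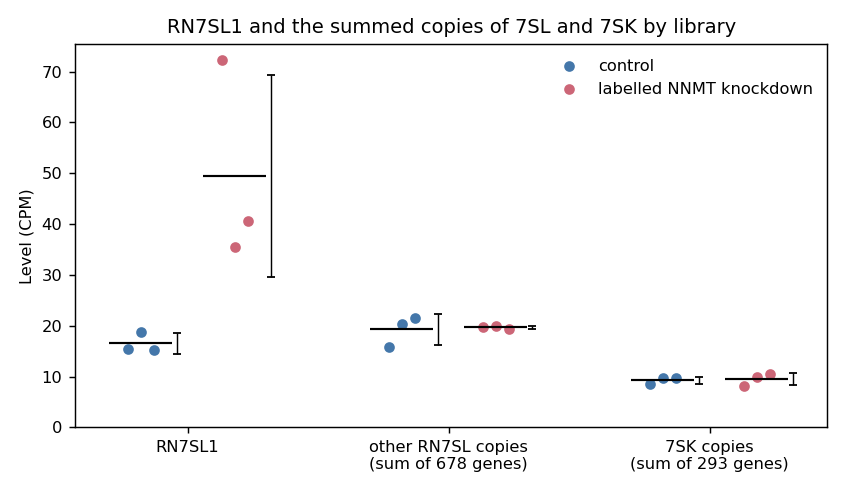
Level in CPM (vertical axis) of RN7SL1 and of the summed 7SL and 7SK copies; each point is a library, horizontal lines are group means and bars beside them are SD (n = 3). RN7SL1 lies at 15.3 to 18.9 CPM in control and at 35.5 to 72.2 CPM in the knockdown-labelled libraries, while both sums of copies overlap between the groups.

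RMRP (ENSG00000277027.1, chr9:35657754-35658017, minus strand) was the other RNA member with reads, at the edge of detection. It held 8, 6 and 4 reads in control replicates 1, 2 and 3 and 20, 14 and 4 in the replicates labelled knockdown. Its levels were 0.192, 0.124 and 0.0713 CPM against 0.493, 0.308 and 0.0920 CPM. The groups overlapped, since replicate 3 labelled knockdown lay below 2 of the 3 controls. RMRP did not pass the filter on low counts. Added to the fit, it gave a log2 fold change of 1.22 (SE 0.725), which was 0.632 without replicate 1 labelled knockdown. For scale, 3 reads correspond to between 0.0535 and 0.074 CPM depending on the library. CCDC107, which starts 273 bases beyond RMRP on the opposite strand, measured 5.00, 5.00 and 4.83 CPM in control replicates 1, 2 and 3 and 6.29, 6.17 and 6.24 CPM in the replicates labelled knockdown, higher without overlap. Its part in the RMRP count was not tested.

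Other short RNAs without poly(A) tails were also near the floor, and their sums overlapped between the groups. The 25 spliceosomal snRNA genes summed to 1.3, 1.1 and 0.535 CPM in control replicates 1, 2 and 3 and to 1.5, 1.72 and 1.27 CPM in the replicates labelled knockdown. The 10 genes for Y RNAs, vault RNAs, U3, U8 and telomerase RNA summed to between 0.161 and 0.871 CPM. The 19 genes for scaRNAs, which guide modification of snRNAs in Cajal bodies, summed to between 1.6 and 2.26 CPM. Some of these genes are nested as RN7SK is: 4 of the snRNA genes, 2 of the Y, vault and related genes and 7 of the scaRNA genes had no free base, and 0 of those had a read. Of the 5 genes of these classes that passed the filter, RNU6-8, RNU5F-1, VTRNA1-2, SCARNA6 and SCARNA21, 0 passed the adjusted threshold. RNU6-8, a gene for the U6 snRNA, had the largest fold, with 0.168, 0.415 and 0.0713 CPM in control replicates 1, 2 and 3 and 0.69, 0.749 and 0.391 CPM in the replicates labelled knockdown. Its groups overlapped, and because U6 genes are near-identical copies the value is uncertain. RN7SL1, at 15.3 to 72.2 CPM, thus stood above the sum of each of these classes in every library.

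The replication-dependent histone genes, whose mRNAs mostly end in a stem-loop and not in a poly(A) tail, were lower as a sum. Their 68 genes summed to 399, 440 and 399 CPM in control replicates 1, 2 and 3 and to 335, 345 and 368 CPM in the replicates labelled knockdown, lower without overlap. Of 41 tested members, 5 lay above 0 (12.2%, against 50.8% of all tested genes) and 36 below, the median log2 fold change was -0.231, and 0 passed the adjusted threshold. Without overlap, 9 of the 41 were lower and 2 were higher, where 4.88% of all tested genes were lower and 4.29% higher. H4C8, a histone H4 gene, measured 40.8 ± 3.26 and 31.2 ± 3.02 CPM (SD, n = 3). H2AC14, a histone H2A gene at a low level, went the other way with the largest change of the list, at 0.257 ± 0.0387 and 0.663 ± 0.176 CPM, a log2 fold change of 1.37 (SE 0.441). Between the group means RN7SL1 was higher where the histone sum was lower. Within groups the order was mixed. Replicate 1 labelled knockdown had the highest RN7SL1 level and the lowest histone sum of its group. Control replicate 2 was highest of its group in both, and replicate 3 labelled knockdown lay above replicate 2 in both. The share of RNA without poly(A) tails that each library took up was not tested.

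**Figure D3:**
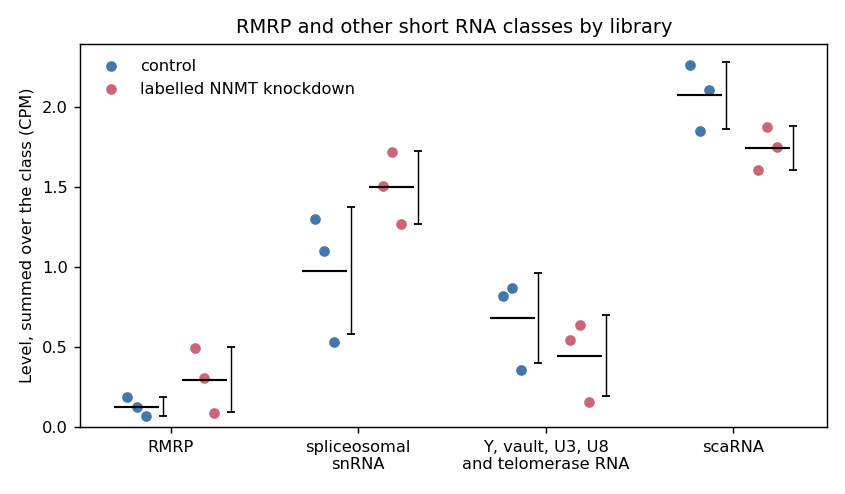
Level in CPM (vertical axis) of RMRP and of 3 summed classes of short RNA; each point is a library, horizontal lines are group means and bars beside them are SD (n = 3). All values lie at or below 2.26 CPM and the groups overlap in each column.

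The mRNAs of the SRP proteins were abundant and differed little between the groups. The Alu-domain proteins come first. SRP9 (ENSG00000143742.14, chr1:225777813-225790468) measured 264, 221 and 228 CPM in control replicates 1, 2 and 3 and 247, 245 and 222 CPM in the replicates labelled knockdown. Its means were 238 ± 23.2 and 238 ± 13.9 CPM (SD, n = 3), with a fitted log2 fold change of 0.00301 (SE 0.0995). SRP14 (ENSG00000140319.11, chr15:40035690-40039181) measured 257, 234 and 226 CPM in control and 207, 234 and 211 CPM in the replicates labelled knockdown. Its means were 239 ± 15.9 and 217 ± 14.9 CPM, a log2 fold change of -0.14 (SE 0.0901), the lowest of the SRP protein members. Both genes overlapped between the groups.

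The S-domain proteins followed the same course. SRP54, the GTPase that binds the signal peptide (ENSG00000100883.13, chr14:34981957-35029686), measured 89.3, 82.6 and 98.7 CPM in control replicates 1, 2 and 3 and 83.4, 105 and 86.2 CPM in the replicates labelled knockdown. Of its 8477 exon bases, 276 are shared with the antisense gene SRP54-AS1 and could not be counted. SRP68 (ENSG00000167881.15, chr17:76038775-76072517), which forms a dimer with SRP72, measured 167, 162 and 150 CPM in control and 149, 154 and 151 CPM in the replicates labelled knockdown. SRP72 (ENSG00000174780.17, chr4:56467617-56503681) measured 188, 170 and 183 CPM in control and 170, 187 and 166 CPM in the replicates labelled knockdown. The groups overlapped for all 3 genes. Their log2 fold changes were 0.02 (SE 0.0996) for SRP54, -0.07 (SE 0.082) for SRP68 and -0.05 (SE 0.0844) for SRP72. Over the 5 SRP protein members, 2 lay above 0 and 3 below, 0 passed the adjusted threshold where 0% of all tested genes did, and the median log2 fold change was -0.045. The 95% intervals of their fold changes lay between 0.793 and 1.18, while the fitted fold of RN7SL1 was 3.01.

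Per kilobase of merged exon length, the SRP mRNAs spanned a wide range and kept nearly the same order in all libraries. SRP14 measured 117 ± 7.76 CPM per kilobase in control and 106 ± 7.27 in the libraries labelled knockdown (SD, n = 3), and SRP9 measured 107 ± 10.4 and 107 ± 6.26. These neighbours did not differ beyond their spread, and SRP9 lay above SRP14 in replicate 1 labelled knockdown only. SRP72 followed at 29.4 ± 1.56 and 28.4 ± 1.8, SRP68 at 21.2 ± 1.17 and 20.2 ± 0.392, and SRP54 at 10.6 ± 0.955 and 10.8 ± 1.37 CPM per kilobase, each gap being wider than the spread. SRP72 and SRP68, which pair in the particle, were at a ratio of 0.669 to 0.78 SRP68 to SRP72 per kilobase. SRP19, the protein that helps SRP54 to bind and no member of the 10, was lowest at 0.888 ± 0.0498 and 0.768 ± 0.0154 CPM per kilobase. Merged exon lengths take in rarely used exons, such as the 10517 bases counted for SRP19, so levels per kilobase of genes with long annotated exons are understated. RN7SL1 at 55.2 ± 6.77 CPM per kilobase in control lay between SRP9 and SRP72, and it reached 165 ± 66.4 in the knockdown-labelled libraries. Selection for poly(A) and the sequence shared with RN7SL2 make this no measure of the amount of 7SL RNA.

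**Figure D4:**
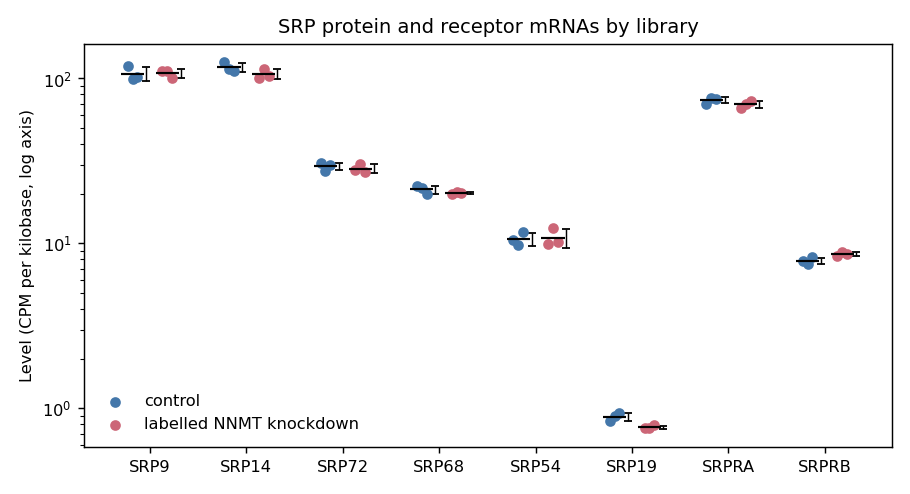
Level in CPM per kilobase of merged exon length (vertical axis, log scale) of the SRP protein and receptor genes; each point is a library, horizontal lines are group means and bars beside them are SD (n = 3). SRP9 and SRP14 lie near 107 and 117 in control and SRP19 is lowest at 0.888, with the groups close together for each gene.

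Around the particle, the receptor and translocon genes showed small differences. SRPRA, the receptor subunit that binds SRP54, measured 307 ± 13.1 and 290 ± 14.6 CPM (SD, n = 3), and its membrane anchor SRPRB measured 32.8 ± 1.52 and 36.1 ± 1.03 CPM. SRPRB was higher without overlap, at 32.7, 31.4 and 34.4 CPM in control replicates 1, 2 and 3 against 35.2, 37.2 and 35.9 CPM. SRP19 was lower without overlap, at 8.78, 9.44 and 9.81 CPM against 7.99, 7.97 and 8.26 CPM, where 988 of all tested genes (4.88%) were lower in that way. Of the 25 genes of the translocon and of early processing of secretory proteins, 0 rose and 0 fell at the adjusted threshold, 10 lay above 0 and 15 below, and the median log2 fold change was -0.0376. Without overlap, 3 of these 25 genes were higher and 5 were lower, while 9.17% of all tested genes were separated in either direction. The translocon subunit gene SEC61G measured 51.1 ± 3.67 and 59.1 ± 1.89 CPM, higher without overlap. SEC62, a translocon partner, measured 188 ± 14.9 and 163 ± 17.1 CPM, and its groups overlapped. SSR4, of the translocon-associated complex, measured 125 ± 7.71 and 140 ± 4.71 CPM, also higher without overlap. Genes were named by lowest p, and the 5 that were lower without overlap are not among those named. Of 10 genes for the nascent-chain complex NAC and for targeting without SRP, 0 passed, and their median log2 fold change was 0.0406.

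The protein partners of the RNAs whose own counts were fixed at 0 could be measured. Of 12 genes of the 7SK particle and P-TEFb, 0 rose and 0 fell at the adjusted threshold, and the median log2 fold change was -0.0182. CCNT1, the cyclin T subunit of P-TEFb, had the lowest p of the list, with 68.5, 80.5 and 72.9 CPM in control replicates 1, 2 and 3 and 55.7, 61.6 and 60.8 CPM in the replicates labelled knockdown. Its groups did not overlap, its log2 fold change was -0.31 (SE 0.0857), and it did not pass edgeR's quasi-likelihood test (adjusted p = 0.999). LARP7, which binds the 3′ end of 7SK, measured 19 ± 0.234 and 20.1 ± 0.406 CPM, higher without overlap. Of the 12 genes, 1 was higher and 1 lower without overlap, where 4.29% of all tested genes were higher and 4.88% lower. Of 11 genes for the proteins of RNase P and RNase MRP, 0 passed, 7 lay above 0 and 4 below, and the median was 0.0848. RPP14 measured 15.1 ± 0.849 and 12.7 ± 1.98 CPM, and POP1, a large subunit of both enzymes, measured 28.5 ± 4.36 and 25 ± 4.43 CPM (SD, n = 3).

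RNA polymerase III makes 7SL, 7SK, RMRP and RPPH1 RNA, and its genes were measured as a list of 33 subunits and factors. At the adjusted threshold 0 rose and 0 fell, 19 lay above 0 and 14 below, and the median log2 fold change was 0.00508. BRF1, a subunit of the initiation factor TFIIIB, had the lowest p of the list, with 52.1, 53 and 57.6 CPM in control replicates 1, 2 and 3 and 71.9, 61.1 and 57.5 CPM in the replicates labelled knockdown. Its highest value lay in the library with the highest RN7SL1 level, and its groups overlapped by a narrow margin. A link between BRF1 and RN7SL1 was not tested. GTF3A, which encodes the 5S rRNA gene factor TFIIIA, measured 85.5 ± 11 and 96.7 ± 7.89 CPM (SD, n = 3). SNAPC3, a subunit of the factor that binds promoters of the 7SK type, measured 36.7 ± 1.38 and 33.7 ± 0.731 CPM, lower without overlap.

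**Figure D5:**
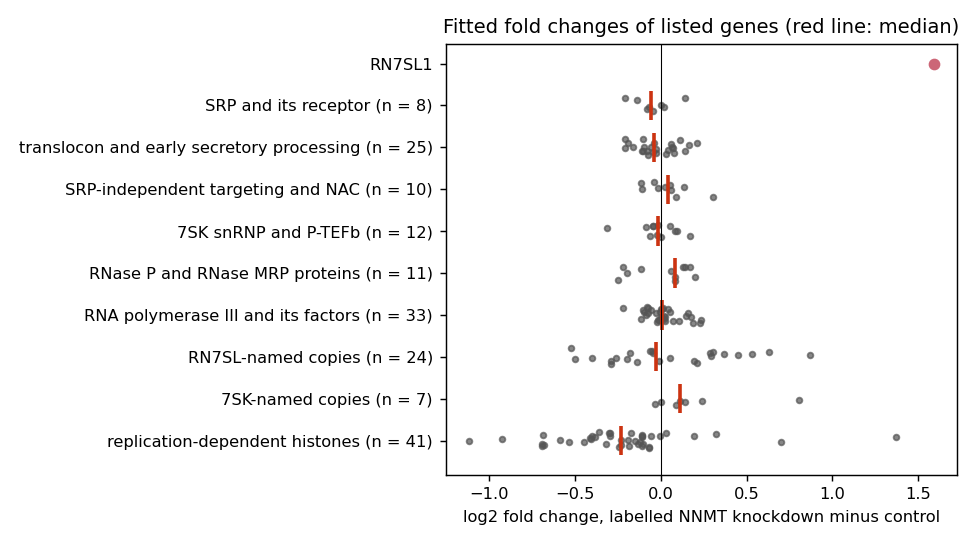
Fitted log2 fold change, libraries labelled NNMT knockdown minus control (horizontal axis), of RN7SL1 and of the tested genes of 9 lists; each grey point is a gene and red lines are medians. RN7SL1 lies at 1.59, the medians of the protein lists lie between -0.0578 and 0.0848, and the histone list has a median of -0.231.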

How the data were processed

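The authors deposited raw read counts per gene, counted by featureCounts 2.0.6 with a GENCODE 44 gene file for hg38, per the file headers. No aligner is named in the sources used here. Only pairs with both mates aligned were kept and chimeric pairs were dropped, while multi-mapping reads, reads overlapping several genes and strand were given no option, per the file headers. Counts from 2 to 10 were even in 73.4% to 76.7% of cases, against 49.8% to 50.8% at 1000 or more, so mates were probably counted singly. All 62700 gene identifiers matched a symbol.

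Groups and replicate numbers came from sample titles. CPM used library totals. Genes were filtered with filterByExpr (20250 kept), scaled with TMM and tested with edgeR 4.0.16 (R 4.3.3; quasi-likelihood, robust dispersion, group only) with Benjamini-Hochberg adjustment at 0.05; the biological coefficient of variation was 18.3%. RMRP and NNMT were added to that fit for their fold changes. The code was tested on simulated data. Free bases were exon bases covered by 1 gene only. Identity came from global alignment (Biopython 1.88) of GENCODE 29 transcripts, and the sequences themselves are not reported here. Alternatives were other scalings, filters and tools (DESeq2 1.42.0, limma-voom with limma 3.58.1), the replicate block, halved counts and leaving out each library. Named genes were all 10 members, up to 4 genes of lowest p per list, the most similar, overlapping and nearest genes, and NNMT. RN7SL3, RN7SL5P, RN7SL535P, RN7SL834P and the epithelial and mesenchymal markers were added after their values were seen. The members and lists were chosen with earlier results of these data known.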

Additional observations from a re-analysis of the deposited data

How the results depend on the processing

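Depth limits RMRP and the other short RNAs, which held few reads per library, while for RN7SL2, RN7SK and RPPH1 the annotation and not the depth is the limit, and the ratio of RN7SL1 to RN7SL2 reads could not be formed. Of 20250 genes tested, 0 passed edgeR's quasi-likelihood test and 817 had an unadjusted p under 0.05. DESeq2 called 8 genes (0.0395%), limma-voom called 0, and edgeR with all genes that had reads called 72 of 37861 (0.19%); the cause was not tested. Leaving out each library in turn gave 0 to 1 called genes. RN7SL1 stayed above 0 in all 16 alternatives, from 1.19 without replicate 1 labelled knockdown to 1.79 without replicate 2 labelled knockdown. Since RN7SL1 was chosen on this contrast, no p is given for it, and its range only describes how far the estimate moved. RMRP stayed above 0 in all 16, from 0.632 to 1.64, and SRP14, SRP68 and SRP72 stayed below 0. The estimate of SRP9, close to 0, changed sign in 4 fits that left out a library (lowest -0.0473, highest 0.0957). SRP54 changed sign in 2 of them (-0.076 and 0.0794 at the extremes), and NNMT in 2 (-0.188 and 1.06 at the extremes); the cause was not tested. The replicate numbers were not taken as pairs in the main fit. Same-numbered libraries had correlations of deviations of 0.0838, -0.226 and 0.4, and other-numbered ones lay between -0.52 and 0.373. With so few libraries these values cannot settle whether the numbers pair them. With the replicate number as a block, 0 genes were called and RN7SL1 had a log2 fold change of 1.52.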

Other observations

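Whether a 7SL or related RNA can be counted depends on the annotation release. In GENCODE 29 RN7SL1 itself lies within ENSG00000283029 (chr14:49586579-49586878), and RMRP lies within ENSG00000269900 (chr9:35657751-35658018). Neither identifier has a row among the 62700 counted genes, which follow GENCODE 44. The entries that enclose RN7SL2, RN7SK and RPPH1 are present in both releases. RN7SL1 also lies within the span of RPS29, which is counted but shares 0 exon bases with it. RN7SL1 and RMRP, whose exon bases are all free of other counted genes, are the RNA members with reads.

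Among 11518 tested genes with a mean of at least 5 CPM, the levels of TINF2, MAPK7 and GALNS across the 6 libraries were most like those of RN7SL1. TINF2, which encodes a telomere protein, had a Pearson r of 0.993 on log2(CPM + 0.5), and its levels were 29.9, 30.8 and 29.6 CPM in control replicates 1, 2 and 3 and 36, 33.6 and 34.1 CPM in the replicates labelled knockdown. MAPK7, a protein kinase gene, had an r of 0.977, and GALNS, a lysosomal sulfatase gene, had an r of 0.971. These genes were picked as the highest of 11518 over only 6 libraries, and 69 genes reached an r of 0.9 or more, so the values describe likeness and nothing else. The SRP protein members ranged from 0.04 for SRP9 to -0.77 for SRP14. For RMRP, at 4 to 20 reads per library, the most similar were SLC10A3 with an r of 0.996, ANXA2P2 with 0.99 and MRPL14 with 0.987. An r of 0.9 or more to RMRP was reached by 132 genes. Every RMRP level lay below the 0.5 CPM added before the logarithm, so these values too describe likeness only.

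Among the 7SK copies, 293 genes summed to between 8.21 and 10.5 CPM, with means of 9.31 ± 0.689 and 9.55 ± 1.19 CPM (SD, n = 3) in control and knockdown-labelled libraries. Of these, 69 had reads, while 5 had no free base and 0 of those had a read. Of the 7 copies that passed the filter, 0 passed the adjusted threshold.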
